A study of Homo sapiens with 6 samples.

Results

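The genes described are 8 of the 58336 in the deposited count table: the Aurora kinases *AURKA*, *AURKB* and *AURKC*, the Aurora A activators *TPX2* and *BORA*, and the partners of Aurora B in the chromosomal passenger complex, *INCENP*, *CDCA8* (Borealin) and *BIRC5* (Survivin). They were found by matching the table's Ensembl identifiers to these symbols, and all 8 had a row and passed the filter on low counts. RNA came from A2780, an ovarian cancer cell line, grown in serum-containing medium with insulin. Cells received DMSO vehicle (replicates A, B and C) or TH588, called TH-588 in the labels and an inhibitor of the Nudix hydrolase MTH1, at 6 µM for 48 h (replicates A, B and C), which gives 6 libraries of polyA RNA. The labels give no exposure time for the DMSO cells. The comparison asks what the inhibitor does to these transcripts in a single cell line. Depth was lowest in TH588 replicate A, at 28537837 counts, against 77634048 to 99074175 in the other 5 libraries. *SNORD3A*, a small nucleolar RNA, held 21.94% of the counts there and 7.68% to 12.95% elsewhere. Of 9 ovarian and epithelial markers, *PAX8*, *KRT7*, *CDH1*, *MSLN*, *WT1*, *MUC16* and *KRT8* lay at or below 0.262 CPM (counts scaled to the TMM library size) in every library, while *EPCAM* rose from 0.644 to 4.74 CPM (edgeR, adjusted p = 8.23e-07) and *KRT18* from 3.56 to 6.54 CPM (edgeR, adjusted p = 0.00017), and their sum went from 3.89 to 4.63 CPM with DMSO up to 10.9 to 12.2 CPM with TH588. Of 4 mesenchymal markers, *VIM* had 3330 to 4050 CPM, *COL1A1* and *DCN* had 2.58 to 7.01 CPM, and *COL1A2* rose from 1.43 to 3.70 CPM (edgeR, adjusted p = 0.00012). The 4 immune markers summed to 0.0608 to 0.192 CPM with DMSO and 0.288 to 0.411 CPM with TH588, where *CD14* rose from 0.0649 to 0.336 CPM (edgeR, adjusted p = 0.00393) and *CD3E* was at 0 in every library, and the 3 endothelial markers summed to at most 0.132 CPM. The part of these shifts in the results was not tested.

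Aurora kinases are serine/threonine kinases of mitosis. Aurora A works at centrosomes and spindle poles, where TPX2 binds it, holds it in its active form and brings it to spindle microtubules, and where Bora helps it to activate the kinase PLK1. Aurora B is the enzyme of the chromosomal passenger complex, in which INCENP is the scaffold and activator and Borealin and Survivin direct the complex to centromeres. The complex corrects faulty attachments of chromosomes to the spindle and later acts in cytokinesis. Aurora C is a close relative of Aurora B known mainly from meiosis. Transcripts of most of these genes are made chiefly in G2 and mitosis, through promoters that carry CCAAT boxes and the cell cycle genes homology region, whose core letters are TTTGAA.

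The RefSeq promoter table for GRCh38.p14, which gives 250 bases before and 50 after each listed start, held entries for 5 of the 8 genes: *CDCA8*, *INCENP*, *BORA*, *AURKB* and *AURKC*. It held none for *AURKA*, *TPX2* and *BIRC5*. The letters TTTGAA, read as TTCAAA on the other strand, stood in the entries of *CDCA8*, *INCENP* and *BORA*, 3 of the 5, and in 15.2% of all 35116 promoters of this length. The letters CCAAT, read as ATTGG on the other strand, stood in all 5 and in 34.6% of all promoters. The motif TTCGAA, which reads the same on both strands, stood in *BORA* only and in 1.45% of all promoters. Of these 5 genes, 4 fell after TH588 and *AURKC* did not, and a link of the letters to that difference was not tested. A stretch of 30 bases is shown for each gene in the orientation of the gene, with these letters in capitals.
CDCA8, chr1:37692480-37692509, plus strand: tgtgactgtggagTTTGAATTGGgtggcgg
INCENP, chr11:62123981-62124010, plus strand: ggATTGGctgagccttcagtTTTGAAaatc
BORA, chr13:72727734-72727763, plus strand: aggctgcgttgaTTTGAAtttggagccacg
AURKB, chr17:8210362-8210391, minus strand: gaccagcgcccagATTGGggctagtgtgct
AURKC, chr19:57230979-57231008, plus strand: tcaggaatttcagCCAATaggagccagcca
Counted from the listed start, the first base of TTTGAA lay at -23 in *CDCA8*, at -10 in *INCENP* and at -177 in *BORA*. In *CDCA8* its last base was shared with an ATTGG that began at -18, and in *INCENP* an ATTGG began at -28. *AURKB* has 2 listed starts, and the ATTGG shown began at -153 from one of them and -129 from the other. By the gene spans of the count table, the windows of *CDCA8*, *INCENP*, *AURKB* and *AURKC* lie inside the gene. That of *BORA* crosses the gene's start. Exons annotated by GENCODE begin at -35 in *CDCA8* and at -174 in *BORA*, so TTTGAA lies wholly or partly in an exon there. For *INCENP* that annotation starts the gene at 62123998, before its TTTGAA. The letters shown are thus not all upstream of transcribed sequence. These are matches of letters in a window, and binding was not measured.

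After TH588, 7 of the 8 transcripts fell at an adjusted p under 0.05 from edgeR's quasi-likelihood test, and none rose past it. Among all 15844 genes tested, 25.3% were lower and 24.2% were higher by the same rule. The count of 7 also stood at an adjusted p under 0.01, where 19.5% of all genes were lower and 17.3% higher, and with the replicate letter as a block, where 23.4% were lower. The falls lay between 1.88-fold for *INCENP* and 2.67-fold for *AURKB*. The median log2 fold change of the 8 genes was -1.08, against 0.019 over all genes tested. In the 7 genes that fell, every TH588 library lay below every DMSO library, which held for 29% of all genes. The share of lower genes differed with abundance. Among genes within 0.5 of the mean log2 CPM of each of the 7, the share called lower ran from 31.2% near *BORA* to 52.0% near *AURKA*, with 51.6% near *TPX2*, 45.8% near *INCENP*, 43.4% near *CDCA8*, 40.0% near *AURKB* and 39.8% near *BIRC5*. *AURKC* went the other way without passing the threshold. Its unadjusted p from edgeR was 0.0433, so 1 of the 8 genes would count as higher without adjustment. At an unadjusted p under 0.05, 4342 of all 15844 genes tested would be higher. DESeq2 and limma-voom called none of the 8 higher, against 24.7% and 25.6% of all genes. These are bulk libraries, so fewer cells in G2 and mitosis and less of each transcript per cell cannot be told apart. For a single gene the smallest p of an exact permutation test is 0.1 with 3 libraries in each group, so the adjusted p-values come from the edgeR model across all genes. The study's methods call the replicates biological, without saying how they were kept apart. Values of single libraries follow the order A, B, C, and a log2 fold change is given ± its standard error.

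**Figure D1:**
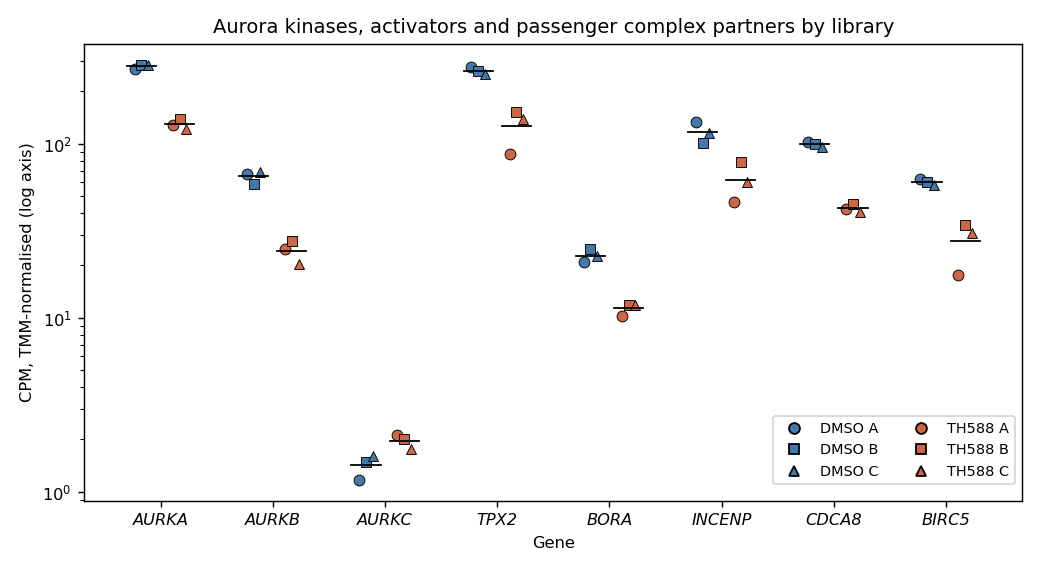
CPM after TMM normalisation (log axis) of the 8 genes (horizontal axis) in each library, with DMSO in blue, TH588 in orange, a marker shape for each replicate letter and a line at each group's mean. The TH588 points lie below the DMSO points for 7 genes and above them for *AURKC*, and TH588 replicate A lies under the other TH588 replicates for *TPX2*, *INCENP* and *BIRC5*.

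*AURKA* (ENSG00000087586), which encodes Aurora A, lies on the minus strand of chromosome 20 of GRCh38 from 56369389 to 56392337, with 11 exon blocks in the table. It had 268, 283 and 284 CPM with DMSO against 128, 138 and 121 CPM with TH588. The groups stood well apart and the 3 TH588 libraries lay close together. The mean went from 278 ± 8.8 to 129 ± 8.73 CPM (SD, n = 3 each), with a log2 fold change of -1.11 ± 0.080 (edgeR, adjusted p = 4.92e-07). An annotated pseudogene, *AURKAP1*, had 0.384 to 0.673 CPM in the 6 libraries.

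*AURKB* (ENSG00000178999), the passenger complex kinase, lies on the minus strand of chromosome 17 from 8204733 to 8210600. It had 67.0, 59.0 and 68.5 CPM with DMSO against 24.7, 27.7 and 20.4 CPM with TH588. Its log2 fold change of -1.42 ± 0.11 (edgeR, adjusted p = 1.07e-06) was the largest fall of the 8. In all, 1.74% of tested genes had a lower log2 fold change.

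*AURKC* (ENSG00000105146) lies on the plus strand of chromosome 19 from 57230802 to 57235548. It was read from few fragments, 96, 122 and 151 counts with DMSO against 57, 218 and 147 counts with TH588. Scaled, these were 1.17, 1.48 and 1.61 CPM with DMSO and 2.13, 2.00 and 1.76 CPM with TH588. Every TH588 library lay above every DMSO library, as it did for 28.7% of all genes. The means were 1.42 ± 0.228 and 1.96 ± 0.187 CPM (SD, n = 3 each), and the log2 fold change of 0.46 ± 0.20 did not pass the threshold (edgeR, adjusted p = 0.0798). With library size as the only scaling, which moves the median of all genes from 0.019 to 0.126, it did pass, at 0.57 (edgeR, adjusted p = 0.0393), and the shares of all genes called were then 17.6% lower and 26.8% higher. Other genes of its abundance leaned the same way. Among 1058 genes within 0.5 of its mean log2 CPM, 32.4% were called higher, 11.5% were called lower, and the median log2 fold change was 0.22. Whether the difference between *AURKC* and the other kinases exceeds chance was not tested. How reads that match both *AURKB* and *AURKC* were counted is not stated, so its low level is uncertain.

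*TPX2* (ENSG00000088325), whose product activates Aurora A on the spindle, lies on the plus strand of chromosome 20 from 31739271 to 31801805. It had 275, 260 and 252 CPM with DMSO against 87.1, 152 and 138 CPM with TH588. TH588 replicate A was the low library. The log2 fold change was -1.06 ± 0.16 (edgeR, adjusted p = 0.000148), and -0.84 (adjusted p = 5.56e-06) without that library.

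*BORA* (ENSG00000136122), the cofactor through which Aurora A activates PLK1, lies on the plus strand of chromosome 13 from 72727749 to 72756198. It had 20.8, 24.7 and 22.6 CPM with DMSO against 10.2, 11.9 and 11.9 CPM with TH588. The groups did not overlap, and the log2 fold change was -1.0 ± 0.11 (edgeR, adjusted p = 1.36e-05). Its value is uncertain, because exons of *DIS3*, a ribonuclease gene on the opposite strand, cover 37% of its exon bases and the library kit does not mark strand. *DIS3* had 71.1 to 92.7 CPM in the 6 libraries and fell less, with a log2 fold change of -0.30 (edgeR, adjusted p = 0.0054).

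*INCENP* (ENSG00000149503), the scaffold of the complex, lies on the plus strand of chromosome 11 from 62123973 to 62153163. It had 133, 101 and 115 CPM with DMSO against 46.4, 78.2 and 60.6 CPM with TH588. It showed the smallest fall of the 7 and a wide spread in both groups. The log2 fold change was -0.91 ± 0.16 (edgeR, adjusted p = 0.000467), and it ranged from -1.12 to -0.73 with each library left out in turn.

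*CDCA8* (ENSG00000134690), which encodes Borealin, lies on the plus strand of chromosome 1 from 37692418 to 37709719. It had 102, 99.4 and 95.4 CPM with DMSO against 42.1, 44.8 and 40.4 CPM with TH588. Replicates were tight in both groups, and the log2 fold change of -1.22 ± 0.078 had the smallest adjusted p of the 8 genes, 2.26e-07 from edgeR.

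*BIRC5* (ENSG00000089685), which encodes Survivin, a member of the inhibitor of apoptosis family that serves the complex in mitosis, lies on the plus strand of chromosome 17 from 78214186 to 78225636. It had 63.0, 60.0 and 57.6 CPM with DMSO against 17.5, 34.1 and 30.7 CPM with TH588. TH588 replicate A was again the lowest. The log2 fold change was -1.12 ± 0.18 (edgeR, adjusted p = 0.000242), and -0.88 (adjusted p = 6.45e-06) without that library.

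TH588 replicate A lay below replicates B and C for *TPX2*, *INCENP* and *BIRC5*, and also, by less, for *BORA*. Its CPM over the mean of TH588 replicates B and C was 0.600 for *TPX2*, 0.669 for *INCENP* and 0.541 for *BIRC5*, against 0.987 for *AURKA*, 1.03 for *AURKB*, 0.989 for *CDCA8* and 0.854 for *BORA*. The median over all tested genes was 0.988, and 4.73% of them had a ratio lower than that of *BIRC5*. Without TH588 replicate A 7 genes were still lower at an adjusted p under 0.05, as 24.7% of all genes were, with falls from 1.66-fold for *INCENP* to 2.67-fold for *AURKB*. The part of depth or of *SNORD3A* in the lower values of that library was not tested.

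**Figure D2:**
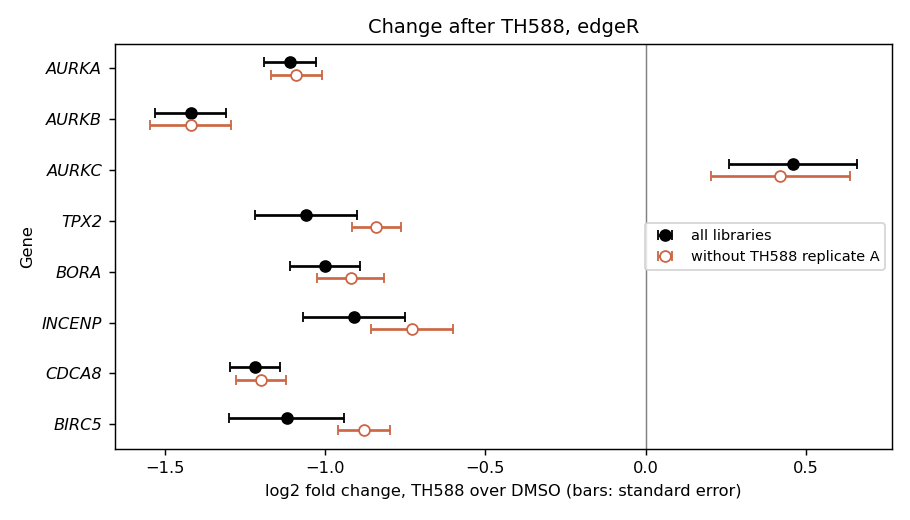
Log2 fold change of TH588 over DMSO (horizontal axis) of each of the 8 genes from edgeR, with bars of 1 standard error, for all libraries (filled) and without TH588 replicate A (open). The 7 falls lie between -1.42 and -0.91 with all libraries, *AURKC* lies at 0.46, and *TPX2*, *INCENP* and *BIRC5* move toward 0 without that library.

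Levels of different genes were compared per length, as CPM per kilobase of exon. The length counts all annotated exon bases of a gene, whether or not these cells use them, so the order is approximate. The level of *BORA* and its ratio to *AURKA* also carry the uncertainty from *DIS3* given above. In DMSO cells *AURKA* was the most abundant at 95.1 ± 3.01, followed by *TPX2* at 72.8 ± 3.20, *CDCA8* at 40.0 ± 1.30, *AURKB* at 28.9 ± 2.29, *INCENP* at 26.0 ± 3.54, *BIRC5* at 15.8 ± 0.702, *BORA* at 7.12 ± 0.599 and *AURKC* at 0.729 ± 0.117 CPM per kilobase (SD, n = 3 each). Neighbours in this order had ranges apart, except *AURKB* and *INCENP*, whose ranges overlapped. In TH588 cells the order began with *AURKA* at 44 ± 2.98, *TPX2* at 34.9 ± 9.50, *CDCA8* at 17.2 ± 0.899, *INCENP* at 13.8 ± 3.56 and *AURKB* at 10.8 ± 1.64 CPM per kilobase (SD, n = 3 each), and the ranges of each neighbouring pair overlapped except those of *TPX2* and *CDCA8*. *BIRC5* at 7.19 ± 2.30, *BORA* at 3.55 ± 0.315 and *AURKC* at 1.01 ± 0.0961 CPM per kilobase (SD, n = 3 each) followed with ranges apart. *AURKB* was 39.6 times as abundant per length as *AURKC* in DMSO cells and 10.7 times in TH588 cells, and *AURKA* was 3.29 and 4.07 times as abundant as *AURKB*.

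Because the complex works as a unit, the partners were also set against their kinase within each library, where scaling between libraries plays no part. The ratio of *INCENP* to *AURKB* per length was 0.993, 0.858 and 0.842 with DMSO against 0.942, 1.41 and 1.49 with TH588. It was higher in TH588 replicates B and C than in any DMSO library, but replicate A lay among the DMSO values, and the log2 difference of 0.49 had p = 0.2 by a two-sided exact permutation test. The ratio of *CDCA8* to *AURKB* went from 1.38, 1.53 and 1.26 to 1.55, 1.47 and 1.80 with overlap (exact permutation p = 0.2). The ratio of *BIRC5* to *AURKB* went from 0.552, 0.598 and 0.494 to 0.417, 0.724 and 0.884, with TH588 replicate A below the DMSO values and replicates B and C above them (exact permutation p = 0.5). For Aurora A, the ratio of *TPX2* to *AURKA* was 0.832, 0.744 and 0.722 with DMSO against 0.553, 0.894 and 0.929 with TH588, a log2 difference of 0.01 (exact permutation p = 1.0). The ratio of *BORA* to *AURKA* differed by 0.11 on the log2 scale (exact permutation p = 0.5). The ratio of *AURKB* to *AURKA* was the sole pair without overlap, at 0.326, 0.272 and 0.316 with DMSO against 0.252, 0.262 and 0.220 with TH588. Its log2 difference was -0.31, lower in 3 of 3 TH588 libraries, with the smallest p the design allows (exact permutation p = 0.1, adjusted p = 0.4 over the 6 ratios). None of the 6 ratios could pass 0.05 with 3 libraries in each group.

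**Figure D3:**
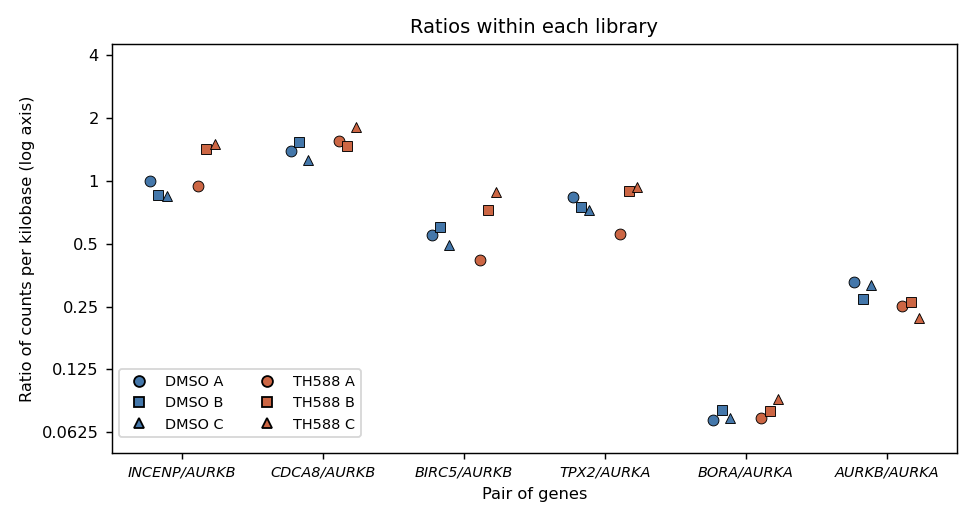
Ratio of counts per kilobase (log axis) for 6 pairs of genes within each library, with DMSO in blue and TH588 in orange and a marker shape for each replicate letter. The groups overlap in 5 pairs, the TH588 points lie below the DMSO points for *AURKB* over *AURKA*, and TH588 replicate A stands under the other TH588 replicates where *TPX2*, *INCENP* or *BIRC5* is the numerator.

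The surrounding pathway was read from 6 lists of 87 genes in all, of which all 87 could be tested. Among them 56 were lower (64.4%) and 10 were higher, against 25.3% lower and 24.2% higher over all genes, and their median log2 fold change was -0.41. The share over all genes is a loose background, because it differed with abundance. It was 31.2% lower with a median of -0.03 near *BORA*, and 52.0% lower with a median of -0.24 near *AURKA*. The lists were not set against genes of like abundance. No test was made between the lists. Substrates of Aurora B were lower in 14 of 16 genes, with a median of -1.16, while phosphatases that oppose the kinases were lower in 7 of 14 and higher in 3, with a median of -0.20.

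Among 15 partners and substrates of Aurora A, 10 were lower and 1 was higher, with a median log2 fold change of -0.28. With library size as the only scaling 5 were lower. *KIF11*, the motor that pushes spindle poles apart, fell from 214 ± 7.14 to 91.8 ± 7.48 CPM (SD, n = 3 each), or -1.22 on the log2 scale. *TACC3*, which Aurora A phosphorylates on the spindle, fell from 134 ± 6.79 to 60.5 ± 15.8 CPM (SD, n = 3 each), or -1.14 on the log2 scale. *NUMA1*, a spindle pole protein, rose by 0.29 on the log2 scale, with 115 to 135 CPM in DMSO libraries and 131 to 175 CPM in TH588 libraries, which overlap. Its call was lost with the replicate block (edgeR, adjusted p = 0.0772) and without DMSO replicates B or C or TH588 replicate B, and exons of other genes cover 24.9% of its exon bases. *PLK1*, which Aurora A and Bora activate, fell from 138 ± 1.66 to 67.9 ± 3.62 CPM (SD, n = 3 each), or -1.02 on the log2 scale. It is named for that link, outside the rule for named genes and after its values were seen.

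Of 14 genes that place or move the passenger complex, 10 were lower and 0 were higher by edgeR, with a median log2 fold change of -0.38. At an unadjusted p under 0.05, 1 would be higher, as would 4342 of all 15844 genes tested. DESeq2 and limma-voom called 0 of the list higher, against 24.7% and 25.6% of all genes. With library size as the only scaling 6 were lower and 1 was higher. *HASPIN*, the kinase whose mark on histone H3 recruits Survivin, had 19.3 to 20.6 CPM in the DMSO libraries and 7.96 to 8.58 CPM in the TH588 libraries, a log2 fold change of -1.28. Exons of other genes cover 15.3% of its exon bases. *TTK*, the checkpoint kinase Mps1, fell from 61.6 ± 3.38 to 27.1 ± 1.88 CPM (SD, n = 3 each), or -1.18 on the log2 scale.

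Among the Aurora B substrates, 14 of 16 were lower and 1 was higher. The largest falls were those of *ZWINT*, a kinetochore protein, from 78.0 ± 4.57 to 24.8 ± 2.67 CPM, and *NCAPH*, a condensin subunit, from 91.4 ± 1.62 to 30.1 ± 2.50 CPM (SD, n = 3 each). Their log2 fold changes were -1.65 and -1.60. *CHMP4C*, an ESCRT-III subunit that Aurora B phosphorylates in the abscission checkpoint, rose from 1.93 ± 0.294 to 3.64 ± 0.336 CPM (SD, n = 3 each), or 0.92 on the log2 scale (edgeR, adjusted p = 0.000718). Exons of other genes cover 13.4% of its exon bases.

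In the phosphatase list 50% of the genes were lower and 21.4% higher, against 25.3% and 24.2% of all genes. Among genes of the abundance of *BIRC5*, 39.8% were lower and 23.1% higher. Near *INCENP* these shares were 45.8% and 19.6%, so the 50% is closer to the share at such abundance than to that of all genes. *CDCA2* (Repo-Man), which brings protein phosphatase 1 to chromatin and so removes Aurora B marks, fell from 92.8 ± 2.09 to 32.4 ± 5.77 CPM (SD, n = 3 each), or -1.51 on the log2 scale. Among regulatory B56 subunits of protein phosphatase 2A, *PPP2R5E* fell by 0.67 on the log2 scale, while *PPP2R5B* rose from 11.7 ± 0.958 to 21.1 ± 1.77 CPM (SD, n = 3 each), or 0.86 on the log2 scale. *PPP2R5C* rose by 0.29, and that call was lost without DMSO replicates A or C or TH588 replicate C. With library size as the only scaling 3 of the list were lower, against 7.

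Of 13 genes that mark Aurora kinases or their regulators for destruction, 5 were lower (38.5%) and 3 were higher (23.1%), with a median of -0.16. Over all genes 25.3% were lower and 24.2% higher, so the share of rises was near that of all genes. The share of falls lay between those of genes near *BORA* in abundance, 31.2%, and near *AURKB*, 40.0%. *UBE2C*, the ubiquitin-conjugating enzyme of the anaphase-promoting complex, fell from 140 ± 15.1 to 51.0 ± 8.10 CPM, and *CDC20*, an activator of that complex, fell from 242 ± 4.86 to 118 ± 5.37 CPM (SD, n = 3 each). Their log2 fold changes were -1.45 and -1.03. The F-box genes *FBXW7* and *FBXL2* rose, the first from 28.1 ± 1.46 to 45.3 ± 4.81 CPM and the other from 6.28 ± 0.107 to 10.1 ± 0.393 CPM (SD, n = 3 each), with log2 fold changes of 0.69 and 0.68. *CHFR*, a checkpoint ubiquitin ligase known to act on Aurora A and a gene the study expressed in A2780 clones, was close to absent, at 0.231, 0.436 and 0.171 CPM with DMSO against 0.635, 0.414 and 0.467 CPM with TH588. Its log2 fold change of 0.81 did not pass the threshold (edgeR, adjusted p = 0.143), and passed it without DMSO replicate B (1.28, adjusted p = 0.0421). It is named for its place in the study, after its values were seen.

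Regulators that act on promoters of G2/M genes were lower in 10 of 15 and higher in 2, with a median of -0.72. *MYBL2*, which binds the MuvB core to activate such genes, fell from 188 ± 13.7 to 54.8 ± 13.3 CPM (SD, n = 3 each), or -1.77 on the log2 scale. *RBL1* (p107), a pocket protein of the repressing complex, fell by 1.48 on the log2 scale. *RBL2*, another pocket protein in the list, went the other way by 0.27 without passing the threshold (edgeR, adjusted p = 0.0606). It was called higher by DESeq2 (adjusted p = 0.0438) and limma-voom (adjusted p = 0.0375). With edgeR it was called higher with no filter, with at least 10 counts in every library and without TH588 replicate A. It is named outside the rule for named genes and after its values were seen. *LIN37* and *NFYC* were higher by 0.49 and 0.24 on the log2 scale. Both calls were lost at an adjusted p under 0.01 and without DMSO replicate A or TH588 replicate C, that of *LIN37* also without TH588 replicate B, and that of *NFYC* also without DMSO replicates B or C, with the replicate block (edgeR, adjusted p = 0.0716) and with no filter, and exons of other genes cover 54% of the exon bases of *LIN37*.

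**Figure D4:**
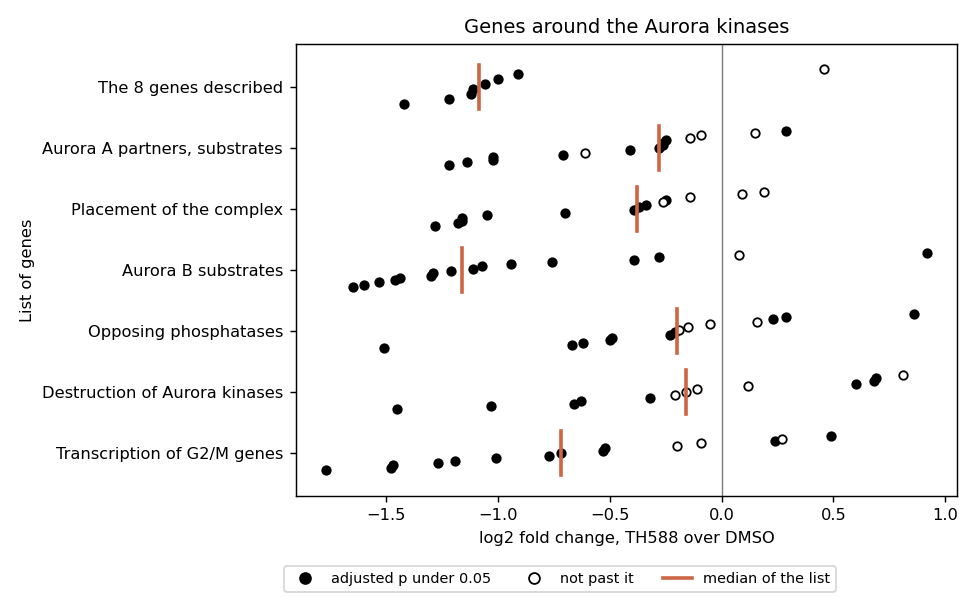
Log2 fold change of TH588 over DMSO (horizontal axis) for the 8 genes and for each of the 6 surrounding lists (rows), with filled points at an adjusted p under 0.05, open points for the other genes, and a bar at the median of each list. Points are spread vertically for clarity only. The 8 genes have a median of -1.08, the Aurora B substrates lie nearest to them at -1.16, and each of the 6 lists has members on both sides of 0.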

How the data were processed

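PolyA RNA from A2780 cells was sequenced in 3 DMSO and 3 TH588 libraries. According to the study's methods, TopHat aligned the reads to GRCh38, and featureCounts (1.4.6 in the submitters' processing notes) assigned them to genes. The authors deposited raw counts per gene without normalisation. UCSC gene models are named there, but identifiers in the file are Ensembl's, and 57754 of 58336 matched a symbol. Settings for strand and for reads that match several genes are not given in the sources used here.

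Counts were compared with edgeR 4.0.16 in R 4.3.3 (TMM, default filter, quasi-likelihood test, Benjamini-Hochberg adjustment over all genes tested, no covariate). Standard errors were derived from the fold change and its F statistic. DESeq2 1.42.0, limma-voom (limma 3.58.1), other scalings and filters, each library left out and the replicate letter as a block were alternatives. Total counts ran from 28537837 to 99074175, so 3 counts correspond to 0.0276 to 0.112 CPM, counting error only. Replicates differed beyond sampling noise (chi-square per degree of freedom 25.2 to 179.9). The fit was tested on simulated counts in which far fewer genes changed than were called here. That test does not cover the scaling where so many genes change. The study itself compared the groups with DESeq2.

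The members and lists were chosen with earlier results of these data known. Genes named outside the 8 are the 2 largest called rises and falls of each list, the 5 genes most like the 8 (1 of them is not reported here), and genes whose exons overlap theirs.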

Additional observations from a re-analysis of the deposited data

How the results depend on the processing

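The count of 7 lower genes held under each of the 14 alternatives run, and the number of genes called over the whole table, 7852, ranged from 6805 to 7914 with a library left out and from 5831 to 8225 otherwise. Across those at an adjusted p under 0.05, 15.5% to 27.9% of all genes were lower and 15.9% to 27.5% were higher. With library size only, 1 of the 8 was higher, *AURKC* at 0.57, 5 Aurora A partners were lower, 6 placement genes were lower and 1 was higher, and 3 phosphatases were lower. Where each library had to hold 10 counts or more, 1 placement gene was higher, as were 27.5% of all genes. At an adjusted p under 0.01, 6 Aurora A partners were lower and 0 higher, 1 phosphatase was higher and 0 regulators of G2/M genes were higher. With a library left out, Aurora A partners had 6 to 8 lower (6 without DMSO replicate A or C or TH588 replicate C) and 0 to 1 higher (0 without DMSO replicate B or C or TH588 replicate B). Placement genes had 0 to 1 higher (1 without TH588 replicate B), phosphatases 1 to 4 higher (1 without DMSO replicate A or C) and regulators of G2/M genes 0 to 3 higher (0 without DMSO replicate A or TH588 replicate C, 1 without DMSO replicate B or C or TH588 replicate B). Over all genes tested, 20.8% to 23.8% were higher in these comparisons that left a library out. Of all called genes 48.9% were higher in the main comparison, and 60.4% with library size only.

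With library size only *CLTC* was 0.011, *PPP1R7* 0.048 and *NFYA* 0.016 on the log2 scale, all reversed in sign, and without TH588 replicate A *KLHL9* reversed to -0.05, the lowest of its values with a library left out (highest 0.179). The *TPX2* to *AURKA* log2 ratio difference, 0.01, ranged from -0.121 without TH588 replicate C to 0.253 without TH588 replicate A. The cause was not tested.

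Replicate letters were treated as names only. Libraries that share a letter did not deviate together (r of -0.07, -0.08 and 0). Under the replicate block the total was 7195 genes, 7129 of them in common with the unblocked comparison, and 7 of the 8 genes were lower. There 0 Aurora A partners and 1 regulator of G2/M genes were higher, against 22% of all genes.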

Other observations

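Among the genes whose log2 CPM over the 6 libraries followed the mean standardised profile of the 8 genes most closely were *BATF3*, *TNFRSF21*, *PARVA* and *SYNJ2*, with Pearson's r of 0.998 to 0.9985. *BATF3* had at most 0.416 CPM, and its 0.112 CPM in TH588 replicate A equals the level of 3 counts there. *PARVA*, which encodes the focal adhesion protein alpha-parvin, had 19.3, 21.2 and 22 CPM with DMSO against 7.88, 11.3 and 9.53 CPM with TH588 (order A, B, C). The 6 points fall into 2 groups and share their libraries and scaling, and 150 of 15844 genes reached at least 0.99. Each of the 8 genes is part of that mean, so its own correlation with the profile is partly fixed in advance. The 7 genes that fell correlated with it between 0.951 for *INCENP* and 0.982 for *AURKA* and *BORA*, and *AURKC* at -0.793. The likeness is a description over 6 libraries.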
